A study of Rattus norvegicus with 11 samples.

Results

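Brevican, neurocan, versican, aggrecan, the link protein Hapln1, tenascin-R, tenascin-C and SPARC are 8 genes of the brain's extracellular matrix, and their RNA was compared between heroin-trained and control rats. The members were the non-control probes whose gene name on the array was Agc1 (now Acan), Bcan, Cspg3 (now Ncan), Cspg2 (now Vcan), Hapln1, Tnr, Tnc or Sparc. They came to 11 of the 41012 non-control probes and covered 7 of the 8 genes, because no probe carried the name Tnc. Of these 11 probes, 9 (of 6 genes) were detected on all arrays and were tested, among 25555 tested probes in all.

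The tissue was medial prefrontal cortex of male rats aged 4 months, with 1 single-colour Agilent array per rat. The 6 heroin rats had earned heroin through a jugular catheter by licking a spout, and each of the 5 yoked saline rats had received saline whenever its partner earned heroin. Both groups then spent 14 days of enforced abstinence and were killed right after a drug-free extinction session in the training chamber. The strain was not given in the sources used here, and each RNA came from a dissected block holding many cell types, in which fewer cells of a type and less RNA per cell cannot be told apart.

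Lecticans are chondroitin sulfate proteoglycans that bind the sugar polymer hyaluronan at one end and tenascins at the other. Link proteins such as Hapln1 lock that bond to hyaluronan, and tenascin-R cross-links lecticans. Together they build perineuronal nets, dense coats that surround mainly parvalbumin interneurons in the cortex and are known to limit synaptic plasticity in adults. SPARC is not a net protein but a secreted matricellular glycoprotein that regulates contacts between cells and matrix.

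The sequences of 6 of the 11 member probes are shown as examples of what was measured for proteoglycan core proteins, the link protein and SPARC. Genes with several probes gave different values. The probe of Cspg3, both of Tnr, the brighter of Cspg2 and the opposite-strand one of Bcan are not printed. The 6 shown are 60 bases long, are printed from the deposited array files in the sense of the gene, and hold at least 1 forward reading frame without a stop codon. Cspg2 A_44_P1017144, Tnr A_43_P11678 and Bcan A_44_P486343, not printed, hold none. No base is singled out by capitals. Positions were taken from the array files and refer to build rn3, and the exons were not analysed here.
Bcan, probe A_44_P372251, chr2:180023611-180023670, minus strand: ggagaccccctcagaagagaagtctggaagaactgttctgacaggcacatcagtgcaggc
Bcan, probe A_44_P359745, chr2:180024686-180024745, minus strand: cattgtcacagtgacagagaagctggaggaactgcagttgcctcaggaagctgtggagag
Cspg2, probe A_44_P158798, chr2:19634942-19635001, minus strand: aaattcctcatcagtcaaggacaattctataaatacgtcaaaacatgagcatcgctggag
Hapln1, probe A_44_P120736, chr2:19557192-19557251, plus strand: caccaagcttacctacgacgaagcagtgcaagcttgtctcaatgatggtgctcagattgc
Agc1, probe A_43_P12154, chr1:134924370-134924938, plus strand: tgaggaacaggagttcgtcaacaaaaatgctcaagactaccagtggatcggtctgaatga
Sparc, probe A_44_P451357, chr10:40825096-40825155, minus strand: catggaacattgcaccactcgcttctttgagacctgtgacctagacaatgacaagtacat
The Agc1 probe is the only one of these 6 whose given interval is longer than the probe itself. Hapln1 and Cspg2 are neighbouring genes in the RefSeq annotation, and their nearest probes lay 75.9 kb apart. The remaining members were Cspg3 A_44_P425058 at chr16:19810547-19810606, Cspg2 A_44_P1017144 at chr2:19633100-19633159, Tnr A_43_P11678 at chr13:75360226-75360284, Tnr A_43_P16071 at chr13:74787585-74787644 and Bcan A_44_P486343 at chr2:180023025-180023084. The files place Bcan A_44_P486343, designed from an expressed sequence tag, on the strand opposite to Bcan. They place Tnr A_43_P16071 on the strand opposite to Tnr and 572.6 kb from the other Tnr probe, and which transcript it measures was not analysed here.

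Signals are given in array medians, that is, the background-corrected intensity of a probe divided by the 50th percentile of all non-control probes on its array. Median intensities were 42.7 to 78.3 for heroin rats and 58.0 to 83.2 for saline rats, and 28185 to 33835 probes were detected per array. Heroin rat 6 had the lowest median and the lowest mean correlation with the other arrays, 0.967 against up to 0.986. The scaling matters for every value below. Under the 50th percentile, the median of all tested probes was 0.18 higher in heroin rats on the log2 scale, whereas under quantile normalization, which gives every array the same distribution, it was 0.01 higher. Group differences of the members are therefore given under both. In the file headers all heroin arrays shared 1 barcode and all saline arrays another, which was read as their position on a slide. This barcode and the group cannot be told apart.

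None of the 9 tested probes passed both of the study's thresholds, a change of 1.4-fold or more together with p below 0.02 before adjustment, where 2.72% of all tested probes did. None had an adjusted p under 0.05 in limma, and neither did any other probe on the array (0%). The smallest adjusted p of a member was 0.263. When limma gave each array a weight by its residual spread, 4 member probes (Cspg3, both of Tnr and Bcan A_44_P359745) had an adjusted p under 0.05, as had 8425 of all tested probes, and none of the 9 reached 1.4-fold. At an unadjusted p under 0.05, 4 of the 9 probes were higher in heroin rats, against 15.7% of all probes. They carried the names Bcan, Cspg3 and Tnr, and 1 of them was A_43_P16071, placed on the strand opposite to Tnr. Under quantile normalization 1 probe, of Bcan, remained under 0.05, against 4.03% of all probes. The mean was higher in heroin rats for 9 of 9 probes under the 50th percentile (78.7% of all probes) and for 7 of 9 under quantile normalization (53.2% of all probes). Over the main probe of each of the 6 genes, the brightest one, the median log2 difference was 0.29 under the 50th percentile and 0.10 under quantile normalization. Fitted fold changes lay between 1.02 and 1.32, and the upper ends of their 95% intervals reached at most 1.66.

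**Figure D1:**
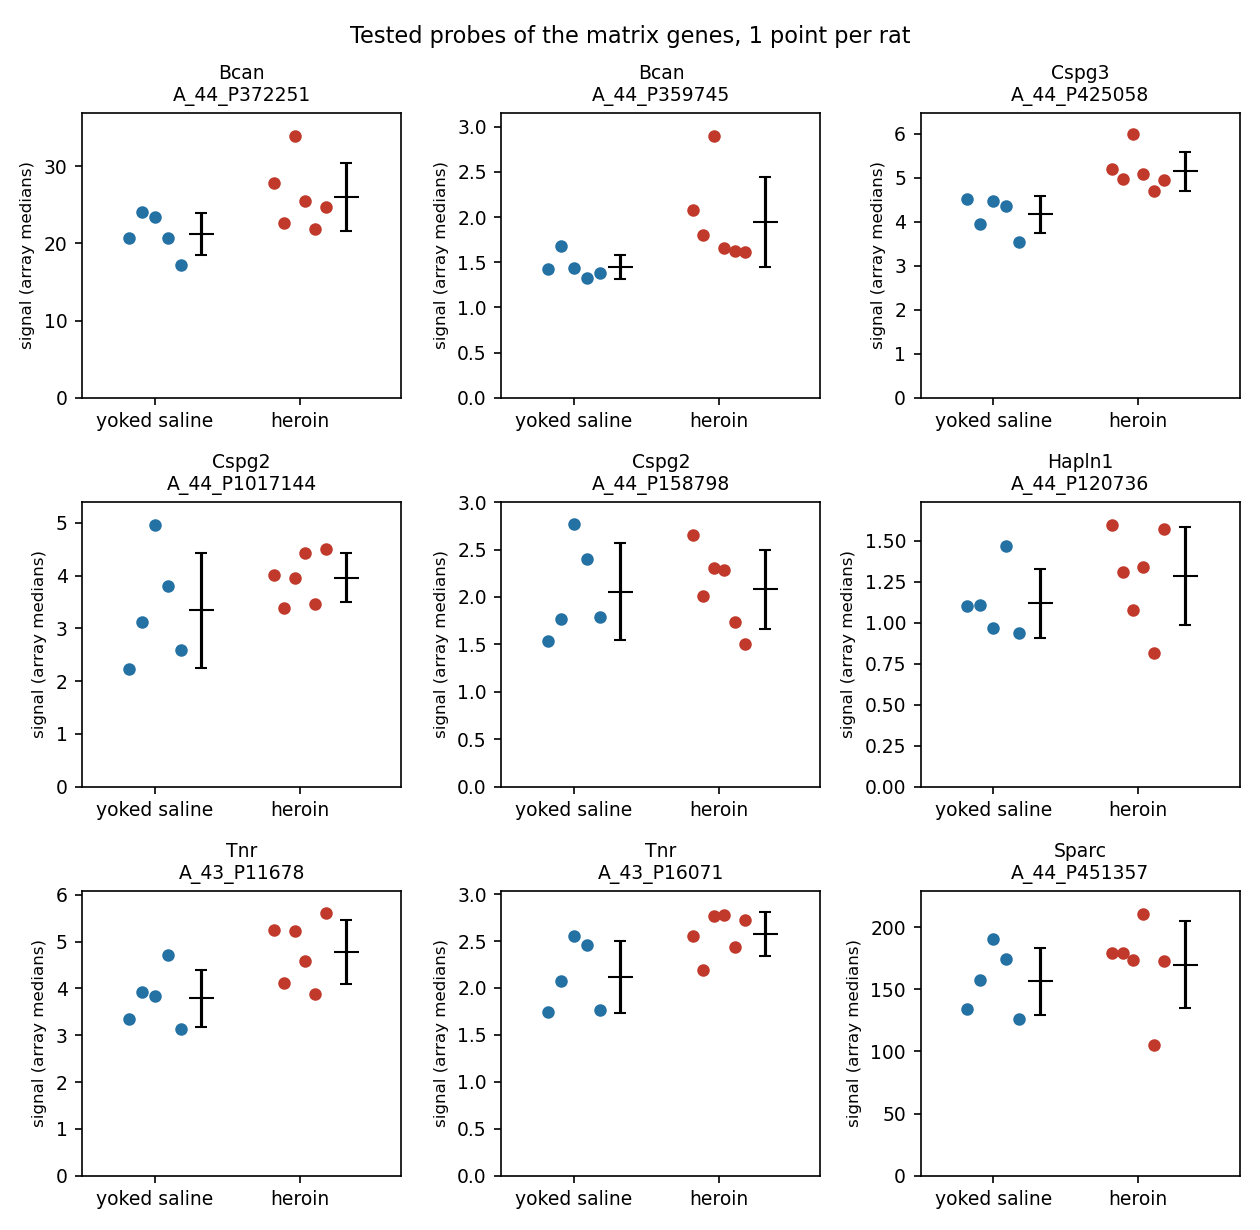
Signal of each tested probe in array medians (vertical axes from 0), with 1 point per rat for 5 yoked saline (blue) and 6 heroin (red) rats and black bars for mean ± SD. Only in the Cspg3 panel do all heroin rats lie above all saline rats.

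Neurocan, encoded by Cspg3, is a lectican that is most abundant in the developing brain and persists in adult nets. Its signal in heroin rats had a lowest value of 4.70, a median of 5.03 and a highest value of 5.99 array medians. The saline rats read 4.51, 3.95, 4.48, 4.36 and 3.54. Every heroin rat thus lay above every saline rat, which held for 1 of the 9 member probes and for 1.66% of all tested probes. The means were 5.15 ± 0.44 (SD, n = 6) and 4.17 ± 0.42 (SD, n = 5). In limma this was a log2 difference of 0.30 with a standard error of 0.12 (adjusted p = 0.263). The exact two-sided permutation test over all divisions of the rats into 6 and 5 gave p = 0.00216, the smallest p it allows. Under quantile normalization the groups overlapped, the log2 difference was 0.09 and the exact permutation p was 0.268.

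Brevican, encoded by Bcan, is among the most abundant lecticans of the adult brain. At A_44_P372251, its brighter probe, the heroin rats ran from 21.9 through a median of 25.1 to 34.0 array medians. The saline rats read 20.7, 24.1, 23.5, 20.7 and 17.2, so that the lower heroin values fell within the saline range. The means were 26.1 ± 4.41 (SD, n = 6) and 21.2 ± 2.75 (SD, n = 5). Their log2 difference was 0.29, with a 95% interval from -0.01 to 0.59 (limma, adjusted p = 0.275), and the exact permutation p was 0.0455. It shrank to 0.05 under quantile normalization.

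At the second Bcan probe, A_44_P359745, the heroin rats ran from 1.61 through a median of 1.73 to 2.90 array medians. The saline rats read 1.42, 1.68, 1.44, 1.33 and 1.38, and 1 saline rat overlapped the heroin range. Heroin rat 3 was the highest at both Bcan probes. The log2 difference of 0.40 was the widest of the 9 tested probes under the 50th percentile, with a 95% interval from 0.06 to 0.73 (limma, adjusted p = 0.263), and the exact permutation p was 0.0216. It was 0.30 under quantile normalization (limma, adjusted p = 0.645), with an exact permutation p of 0.0455. Without heroin rat 3, Tnr A_43_P11678 had the widest difference under the 50th percentile, at 0.31. As each rat was left out, Bcan A_44_P359745 ran from 0.27 (without heroin rat 3) to 0.45 (without saline rat 3). The difference between the groups was 0.11 smaller at the brighter probe than at this one on the log2 scale. That gap was within the spread of the rats (exact permutation p = 0.273, 0.409 after Benjamini-Hochberg adjustment over the 3 genes with 2 tested probes).

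Versican, encoded by Cspg2, is a large lectican made in the adult brain largely by cells of the oligodendrocyte lineage. At A_44_P1017144 the heroin rats ran from 3.39 through a median of 3.99 to 4.51 array medians. The saline rats spread more widely, at 2.23, 3.12, 4.95, 3.81 and 2.59, and enclosed all heroin values. Heroin minus saline was 0.30 on the log2 scale, with a 95% interval from -0.10 to 0.69 (limma, adjusted p = 0.340), and 0.11 under quantile normalization. It was 0.16 without saline rat 2 and 0.45 without saline rat 4. At A_44_P158798, 1842 bases away, heroin rats ran from 1.51 through 2.15 to 2.65 and saline rats read 1.54, 1.77, 2.77, 2.40 and 1.79. The groups overlapped almost fully there, with a log2 difference of 0.03 (95% interval -0.36 to 0.42), which turned to -0.08 under quantile normalization. The 2 probes differed in their group difference by 0.27 on the log2 scale, which was not beyond the spread of the rats (exact permutation p = 0.113, adjusted 0.338).

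Aggrecan, encoded by Agc1, is the lectican that defines most perineuronal nets. Its probe was near the detection limit. It was detected in 4 of 6 heroin and 5 of 5 saline rats and so was not among the tested probes. The heroin rats ran from 0.19 through a median of 0.40 to 0.50 array medians, and the saline rats read 0.52, 0.59, 0.36, 0.37 and 0.40. The highest values were those of saline rats 2 and 3, and the ranges overlapped (exact permutation p = 0.242). In a fit without a detection filter the log2 difference was -0.37, with a 95% interval from -0.93 to 0.18 (limma, adjusted p = 0.454), and under quantile normalization it was -0.19. The opposite-strand Bcan probe, detected in 2 heroin and 2 saline rats, ran from 0.09 to 0.41 and from 0.19 to 0.44 array medians.

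Hapln1, the cartilage link protein that also holds the nets of the brain together, ran in heroin rats from 0.81 through a median of 1.32 to 1.60 array medians. The saline rats read 1.10, 1.11, 0.97, 1.47 and 0.94. The lowest value was that of heroin rat 5, and the saline range lay inside the heroin range. The log2 difference was 0.18 (95% interval -0.21 to 0.57) under the 50th percentile and 0.16 under quantile normalization (limma, adjusted p = 0.524 and 0.866). Hapln1 thus moved little with the scaling between these 2, but it turned to -0.03 when arrays were scaled to the 75th percentile. It was 0.11 without heroin rat 1, 0.12 without heroin rat 6, 0.29 without saline rat 5 and 0.31 without heroin rat 5.

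Tenascin-R, encoded by Tnr, is made by oligodendrocytes and some neurons and joins lecticans into a lattice. At A_43_P11678 the heroin rats ran from 3.89 through a median of 4.90 to 5.61 array medians. The saline rats read 3.35, 3.93, 3.83, 4.70 and 3.13. Saline rat 5 lay in the middle of the heroin range, and saline rats 2, 4 and 6 lay below it. The log2 difference was 0.34, with a 95% interval from 0.03 to 0.64 (limma, adjusted p = 0.263), and the exact permutation p was 0.0390. It was 0.13 under quantile normalization. At A_43_P16071, the probe on the opposite strand, heroin rats ran from 2.19 through 2.64 to 2.78 and saline rats read 1.74, 2.07, 2.56, 2.46 and 1.76. The log2 difference there was 0.30 (limma, adjusted p = 0.269; exact permutation p = 0.0433) and 0.16 under quantile normalization.

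Sparc was bright on every array. The heroin rats ran from 105 through a median of 176 to 211 array medians, and the saline rats read 134, 157, 190, 175 and 126. Heroin rat 5 was below all other rats, and the groups overlapped. The log2 difference was 0.11 (95% interval -0.27 to 0.48) under the 50th percentile and -0.12 under quantile normalization (limma, adjusted p = 0.704 and 0.866). Under the 50th percentile it was 0.24 without heroin rat 5 and 0.18 without saline rat 4, but 0.03 without saline rat 6, 0.04 without heroin rat 4 and 0.05 without saline rat 2.

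**Figure D2:**
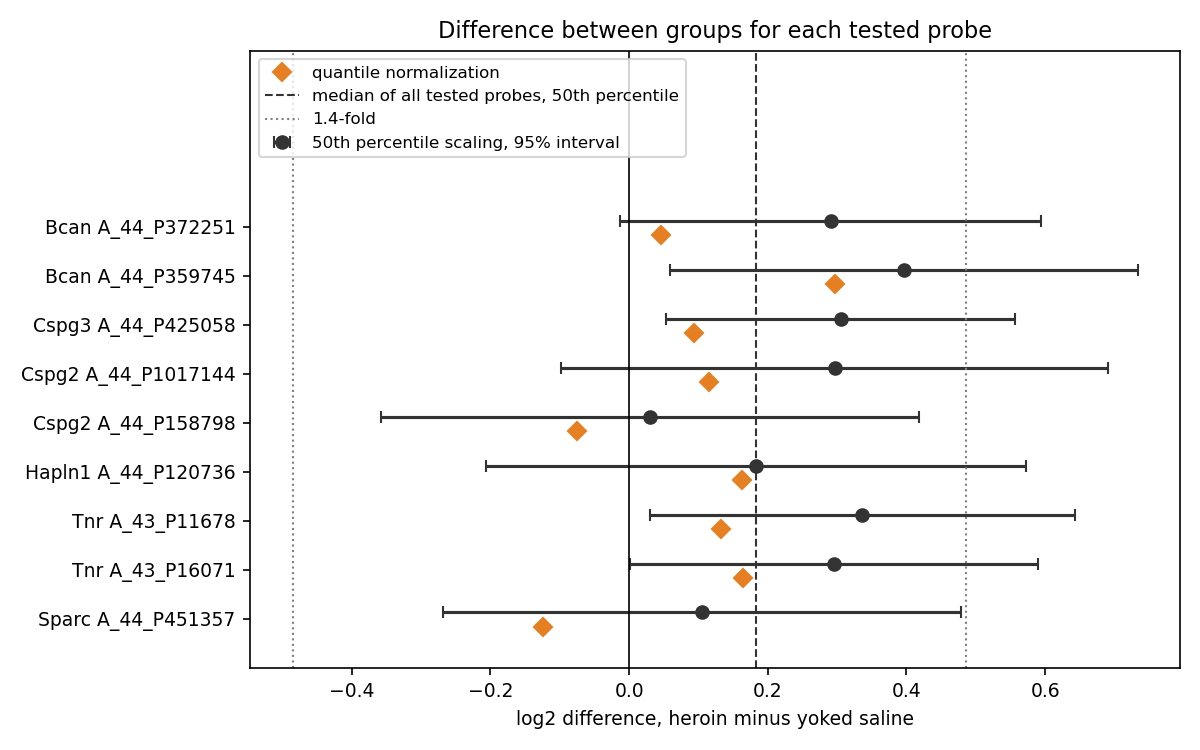
Log2 difference in mean signal, heroin minus yoked saline (horizontal axis), for the 9 tested probes, as black points with 95% intervals under 50th percentile scaling and orange diamonds under quantile normalization. The solid line marks 0, the dashed line the median of all tested probes (0.18, 50th percentile) and the dotted lines a 1.4-fold change, which no point reaches.

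Arrays with the same scan date in the file headers were taken to lie on the same slide. By this rule saline rats 2 to 6 each shared a slide with the same-numbered heroin rat, while heroin rat 1 was alone. Of all tested probes 78.7% had a higher mean in heroin rats under the 50th percentile and 53.2% under quantile normalization. How many of them were higher on every shared slide was not counted, so the member counts below have no background share. Within the 5 shared slides, the heroin rat was higher on 5 of 5 at Cspg3 and at both tested Bcan probes under the 50th percentile. Under quantile normalization these counts were 4 for Cspg3, 3 for Bcan A_44_P372251 and 5 for Bcan A_44_P359745. For that last probe the 5 within-slide log2 differences ran from 0.21 to 0.79 under the 50th percentile and from 0.11 to 0.54 under quantile normalization. Under the 50th percentile both Tnr probes and Sparc were higher in the heroin rat on 4 of 5 slides, and under quantile normalization Tnr A_43_P11678 was on 3, Tnr A_43_P16071 on 4 and Sparc on 2. Cspg2 A_44_P1017144 and Hapln1 were higher on 3 slides and Cspg2 A_44_P158798 on 2 under either scaling. Of the 9 tested probes, Hapln1 had the widest range over the slides under the 50th percentile, from -0.86 on the slide of replicate 5 to 0.74 on that of replicate 6.

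With the slide, which is also the replicate number, as a block in limma, the log2 difference was 0.37 for Bcan A_44_P359745 (95% interval 0.01 to 0.73) and 0.30 for Cspg3 (95% interval -0.06 to 0.66). The blocked value was 0.31 for Tnr A_43_P11678 (95% interval -0.09 to 0.70), and for Cspg2 A_44_P158798 it turned to -0.04. The smallest adjusted p of a member in the blocked fit was 0.454. In that fit 1 of the 9 probes had an unadjusted p under 0.05, and heroin rat 1, alone on its slide, did not inform the difference.

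**Figure D3:**
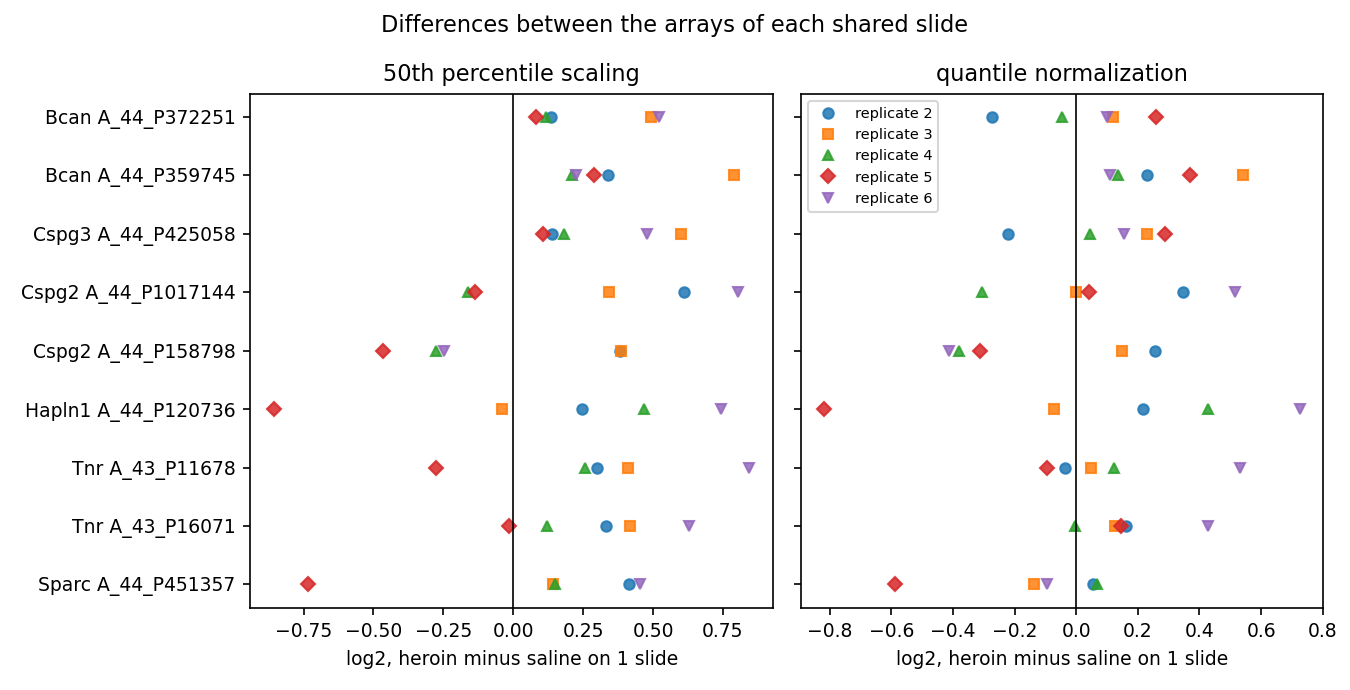
Log2 difference between the heroin and the saline array on each of the 5 shared slides (horizontal axes), for each tested probe, under 50th percentile scaling (left) and quantile normalization (right), with 1 symbol per slide. Bcan A_44_P359745 lies right of 0 on all 5 slides in both panels, whereas Hapln1 runs from -0.86 to 0.74 in the left panel.

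The 2 sense-strand Bcan probes also varied together among rats of the same group. Over the 11 rats, with each group's mean removed from the quantile-normalized values, Pearson's r was 0.855 (permutation p = 0.00061, adjusted 0.00427) and Spearman's rho 0.664 (permutation p = 0.0309, adjusted 0.095). Without the 2 rats farthest from the median r was 0.603. Of the 7 pairs of probes compared in this way, this was the only one with an adjusted p under 0.05 for r. The Cspg2 pair had r = 0.471 and rho = 0.355 (permutation p = 0.142 and 0.286, adjusted 0.284 and 0.396), with r = 0.623 without the 2 farthest rats. The Tnr pair had r = 0.25 and rho = 0.327 (permutation p = 0.457 and 0.327, adjusted 0.64 and 0.396), and its r was -0.05 without the 2 farthest rats.

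The rest of the matrix was described by a list of 70 further genes, of which 51 had a tested probe. Of their 65 tested probes, 0 passed both thresholds (2.72% of all tested probes did). In limma, 8 had an unadjusted p under 0.05, all higher in heroin rats (15.7% of all tested probes were). Under quantile normalization 2 other probes of the 65 had an unadjusted p under 0.05, where 1971 of all 25555 tested probes did. They were of Hapln3, higher in heroin rats (log2 difference 0.28), and of Gpc2, lower (-0.33), both named after their values were seen. The main probe was higher in heroin rats for 48 of the 51 genes under the 50th percentile and for 32 under quantile normalization, where 78.7% and 53.2% of all tested probes were higher. The median log2 difference was 0.22 and 0.05 in the same order.

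The neuronal proteoglycan Cspg5, which is not a lectican, differed by 0.35 (log2, limma adjusted p = 0.275). The link protein Hapln4, which anchors brevican at synapses, differed by 0.28 (limma, adjusted p = 0.592). Under quantile normalization these were 0.13 and 0.05. Ptprz1, a receptor phosphatase with a secreted form that binds tenascin-R, differed by 0.20, and by -0.04 under quantile normalization. Sparcl1, the astrocytic relative of Sparc, differed by 0.11 and by -0.05. Pvalb, the calcium-binding protein of the interneurons that nets surround, read 35.1 ± 7.60 (SD, n = 6) and 31.0 ± 4.75 (SD, n = 5) array medians, a log2 difference of 0.16 and of -0.08 under quantile normalization. None of these genes passed both thresholds in the fit without array weights. With array weights Cspg5 did, at a log2 difference of 0.55 (limma, adjusted p = 0.0192).

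**Figure D4:**
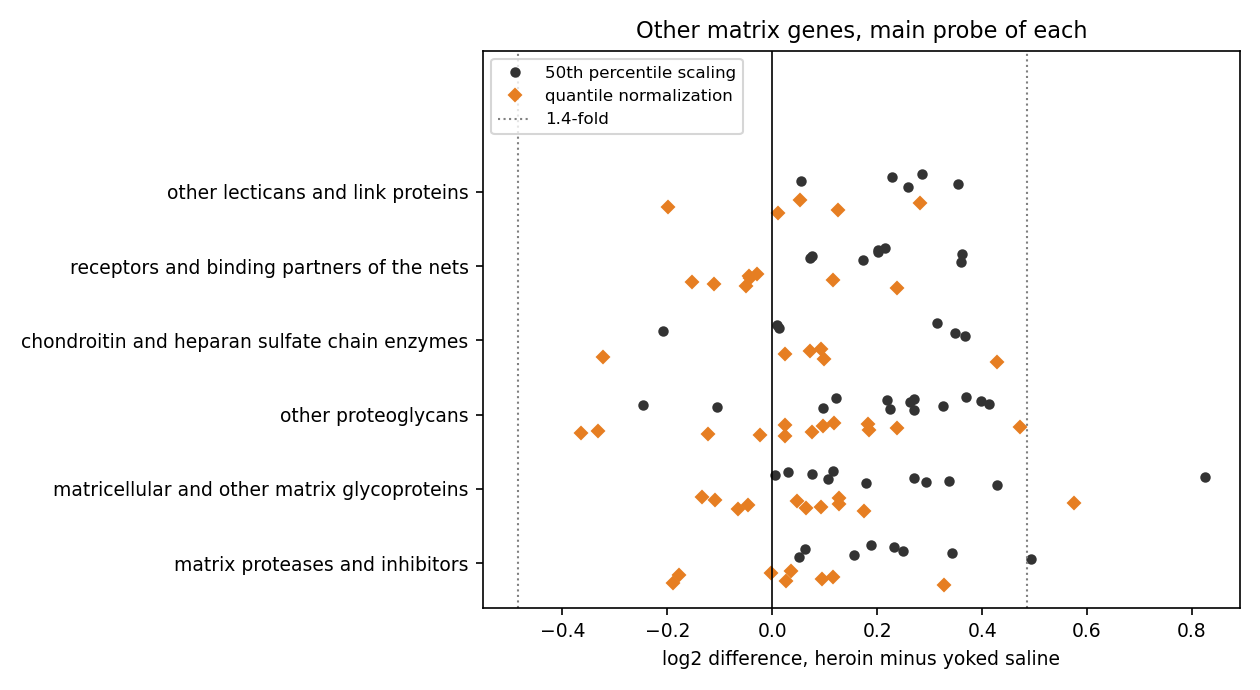
Log2 difference, heroin minus yoked saline (horizontal axis), of the main probe of each of the 51 other matrix genes tested, by group, as black points under 50th percentile scaling and orange diamonds under quantile normalization. Under the 50th percentile 48 of 51 points lie right of 0, and under quantile normalization 32 do. The point at 0.83 is Spock2, whose lowest saline rat read 3.63 array medians. The group labelled other lecticans and link proteins holds Cspg4, Cspg5, Hapln2, Hapln3 and Hapln4, of which Cspg4 and Cspg5 are proteoglycans but not lecticans.

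Cell types of the cortex, blood and striatal tissue were followed by marker lists, given as summed signal in array medians. Which of them make these matrix genes was not tested. Each sum took the main probe of every listed gene with a probe, tested or not. The microglial, endothelial and striatal sums thus include the untested Itgam, Pecam1 and Drd2, while the counts below are of tested genes. Astrocyte markers, 6 genes tested of 7, summed to 365 to 508 in heroin and 320 to 473 in saline rats. Oligodendrocyte markers, 6 of 6, ran from 353 to 884 and from 296 to 925, and precursor markers, 4 of 4, from 74.7 to 124 and from 67.0 to 101. Interneuron markers, 7 of 7, ran from 354 to 447 and from 282 to 394. Endothelial and pericyte markers, 5 of 6, ran from 93.6 to 131 and from 68.1 to 116. Markers of excitatory neurons (2 of 5) ran from 20.3 to 47.3 and from 16.5 to 33.7, and those of microglia (4 of 5) from 66.4 to 138 and from 70.2 to 104. Markers of meningeal fibroblasts (3 of 3) ran from 69.8 to 228 and from 75.4 to 152, of blood (2 of 3) from 6.94 to 20.2 and from 7.53 to 20.3, and of striatum (3 of 4) from 4.44 to 6.77 and from 5.18 to 9.34. The ranges of all these lists overlapped between the groups. Under quantile normalization the mean sum was lower in heroin rats for oligodendrocyte, endothelial and pericyte, precursor, astrocyte, microglial, blood and striatal markers, and higher for those of interneurons, excitatory neurons and meningeal fibroblasts. No gene of any marker list with a probe was undetected on every array, and the markers' part in the matrix differences was not tested. Tested probes numbered 10 for interneuron, 3 for excitatory neuron, 8 for astrocyte, 11 for oligodendrocyte and 4 for precursor markers. They numbered 5 for microglial, 7 for endothelial and pericyte, 6 for meningeal fibroblast, 2 for blood and 4 for striatal markers. Of all these probes 1, of the interneuron peptide gene Vip, passed both thresholds, where 2.72% of all tested probes on the array did. Vip read 100.1 ± 11.7 (SD, n = 6) and 71.5 ± 8.99 (SD, n = 5) array medians. Its log2 difference was 0.49 (limma, adjusted p = 0.263) and 0.25 under quantile normalization, where it did not reach 1.4-fold.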

How the data were processed

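RNA of 11 rats was analysed, while the methods give 12 arrays. For each spot the authors deposited a background-corrected Cy3 intensity from Feature Extraction (per the file headers, release 9.5.1.1), made from 500 ng of RNA. The authors also deposited relative values, a ratio per probe and rat, which served as an alternative. Control and marked spots (99 to 231 per array) were left out. Intensities under 5 were set to 5 and divided by the array's 50th percentile, and log2 was taken. Tests covered probes detected on all arrays with a usable spot on at least 2 arrays per group. Groups were compared with limma (3.58.1, run in R 4.3.3) in a two-sided test whose p-values were adjusted by Benjamini-Hochberg over 25555 probes, and by exact permutation. The fit was tested on simulated data. The number of arrays limits the precision.

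Members, lists and marker genes were chosen with earlier results of these data known. Every member probe is described, and the main probe is the brightest detected one. Ptprz1, Hapln4, Sparcl1, Cspg5 and the marker Pvalb were to be named, with matrix list probes past both thresholds. Alternatives were other scalings, background correction, floor order, relative values, marked spots, detection filters, the methods' t-test, eBayes options, array weights, slide or replicate blocks, probe averages and leaving out each rat.

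Same-numbered rats shared the same scan date, from which a shared slide was inferred, and no label says that a number marks a yoked pair.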

Additional observations from a re-analysis of the deposited data

Results flagged for a closer look

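At Sparc, heroin rat 5 read 105 array medians, far from the other 5 heroin rats. On the log2 scale its gap to the nearest of them was 0.712 of the group's whole range, above Dixon's 95% critical value for 6 samples. It was the only one of 18 groups of values (9 probes in 2 groups) to pass, and chance passes about 1 group in 20.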

How the results depend on the processing

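The count of members past both thresholds was 0 under every alternative. Of 229 alternative values of single member probes, 214 kept direction and side of the threshold and 15 turned, all at Cspg2 A_44_P158798, Hapln1 and Sparc. Scaled to the 75th percentile these 3 read -0.19, -0.035 and -0.11 on the log2 scale, scaled to detected probes -0.16, -0.0075 and -0.085, and under quantile normalization Cspg2 read -0.075 and Sparc -0.12. Cspg2 A_44_P158798 ran from -0.065 to 0.15 as each rat was left out. The members' median log2 difference fell from 0.29 to 0.076, 0.10 and 0.10 under the 75th percentile, quantile normalization and detected-probe scaling. The median of all tested probes fell with it, from 0.18 to -0.034, 0.013 and -0.0069 in the same order. The members' median ran from 0.22 to 0.33 with each rat left out.

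With array weights, which counted heroin rat 6 at 0.26 and saline rat 5 at 0.336, 4 member probes had an adjusted p under 0.05 in limma: Cspg3 (0.0216), Tnr A_43_P11678 (0.0264) and A_43_P16071 (0.0474) and Bcan A_44_P359745 (0.0405), as did 8425 of all tested probes. None reached 1.4-fold. Bcan A_44_P372251 and Sparc had no value among the relative values used here. The methods' t-test put 4 member probes under an unadjusted p of 0.05 and 0 under both thresholds.

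Over all tested probes, 694 passed both thresholds (457 higher, 237 lower in heroin rats). The split was 33 to 746 under the 75th percentile, 42 to 633 with detected probes and 122 to 4 of 126 with normexp. Quantile normalization gave 457 (218 to 239), no detection filter 1560 (475 to 1085), detection in 1 group 1067 (467 to 600), the methods' t-test 308 and array weights 2488. Leaving out 1 rat gave 343 (without saline rat 2) to 2352 (without saline rat 5). Matrix list probes past both thresholds numbered 3 without a detection filter (Has1, Chst3 and Chsy1, named after their values were seen), 1 with detection in 1 group, 10 with array weights and 0 to 3 with 1 rat left out (3 when it was saline rat 5). The replicate block gave 805 probes and 0 members, turned Cspg2 A_44_P158798 to -0.044, and left 1 member probe under an unadjusted p of 0.05 in place of 4. The deviations of same-numbered rats from their group means correlated at 0.384, -0.133, 0.349, 0.017 and -0.237. Of 5 saline rats 2 correlated best with the heroin rat of their own number. These correlations cannot show whether same-numbered rats were yoked. No label gives the yoked pairs, and the main fit did not use the numbers as pairs. The cause of the differences between settings was not tested.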

Other observations

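A probe that carries a transcript cluster name, TC553366, and is described on the array as link protein 1, lay at chr2:19558841-19558900 (rn3), near the Hapln1 probe. It read 3.92 ± 0.65 (SD, n = 6) array medians in heroin and 3.05 ± 0.91 (SD, n = 5) in saline rats. The log2 difference was 0.40 (limma, adjusted p = 0.273; exact permutation p = 0.0996), and 0.23 under quantile normalization. Its deviations from the group means correlated with those of Hapln1 over 11 rats with r = 0.459 and rho = 0.636 (permutation p = 0.157 and 0.0407, adjusted over 7 pairs 0.284 and 0.095), and r was 0.556 without the 2 farthest rats.

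The named gene most like each member among 8332 compared, by Pearson's r over the 11 rats after removal of group means, was Kif5a for Bcan (0.968), Lypla2 for Cspg3 (0.964), Ampd3 for Cspg2 (0.937), Zfp263 for Hapln1 (0.927), Lepre1 for Tnr (0.913) and Arhgef12 for Sparc (0.940). Between 22 genes (Hapln1) and 86 genes (Cspg3) had an r over 0.8. These values are maxima over many genes that share the same 11 arrays and are given as a description.

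Between Hapln1 and its neighbour Cspg2 the same measure gave r = 0.0687 at A_44_P1017144 and 0.0172 at A_44_P158798 (rho 0.318 and 0.164, permutation p of r 0.84 and 0.96, of rho 0.34 and 0.633, adjusted 0.96 for both r and 0.396 and 0.633 for rho). Without the 2 farthest rats r was 0.0225 and -0.23.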
